A study of Homo sapiens with 4 samples.

Results

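The 10 genes described here mark how epithelial or how mesenchymal a cell is: CDH1, EPCAM and ESRP1 on the epithelial side, CDH2 and VIM on the mesenchymal side, and the transcriptional repressors ZEB1, ZEB2, SNAI1, SNAI2 and TWIST1. They were chosen by symbol, and all 10 were found among the 19102 genes that the array probes could be matched to, on 14 of 34127 probes. The cells were PC3, a human prostate cancer line derived from a bone metastasis, infected with a lentivirus that carried either an shRNA against ALKBH3, an enzyme that removes alkyl damage from nucleic acids, or the control shRNA against GFP. All cells were selected with puromycin, and RNA was collected after 48 h or 96 h of selection. Each of the 4 combinations was measured on 1 single-colour Agilent array, which leaves the time points to serve as the repeats of an shRNA. The arrays shared a slide within each time point, and time point and slide cannot be told apart. The labels do not say which of the ALKBH3 shRNAs was used on the arrays. In bulk RNA, fewer cells in a state and less RNA per cell cannot be told apart.

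Epithelial cells are held together by E-cadherin, the product of CDH1, and by tight junctions and desmosomes. In an epithelial to mesenchymal transition, repressors of the ZEB, SNAI and TWIST families lower CDH1 and other epithelial genes, and N-cadherin (CDH2) and the intermediate filament vimentin (VIM) become prominent. ESRP1 directs the splicing of many transcripts to their epithelial form. ZEB and SNAI proteins bind a short DNA element, the E-box with the letters CAGGTG, which reads CACCTG on the other strand. Carcinoma cells can express genes of both states at once, which is called a partial transition.

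ZEB1 is the repressor for which both probes were lower on the ALKBH3 shRNA arrays (values below), and the E-box is the element that its own family reads, so a start of ZEB1 that carries the element is shown here. RefSeq promoter windows, 250 bases before to 50 after a start, were at hand for 4 of the 10 genes. At least 1 copy of CAGGTG or CACCTG stood in 2 of 7 ZEB1 windows and in 0 of 2 for CDH2, 0 of 1 for VIM and 0 of 1 for ZEB2, against 20.6% of 35116 windows of the same 300 bases. The 250 bases before the ZEB1 start that lies first on the chromosome (GRCh38.p14, plus strand, chr10:31318167-31318416) hold 1 E-box, in capitals, whose first base is 57 bases before the start.
ZEB1 upstream: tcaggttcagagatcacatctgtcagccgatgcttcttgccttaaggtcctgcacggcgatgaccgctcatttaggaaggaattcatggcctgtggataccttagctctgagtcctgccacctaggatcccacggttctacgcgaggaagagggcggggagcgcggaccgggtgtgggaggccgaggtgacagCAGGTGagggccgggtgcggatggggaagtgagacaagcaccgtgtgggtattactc
The other ZEB1 window with matches, that of the start at position 3 along the chromosome, held CACCTG 242 bases and CAGGTG 85 bases before its start and a further CAGGTG at 34 bases into the transcript. A match is a description of letters and no evidence of binding, and the array probes cannot assign ZEB1 signal to a start.

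Every signal below is a log2 intensity relative to the 75th percentile of its array, and signals of different probes are not comparable as levels. In the arrays as a whole, the 75th percentile lay between 2150 and 2394 intensity units, between 67% and 70.9% of probes were well above background and 0 spots were saturated. ALKBH3 itself, on both of its probes, was lower on the arrays labelled ALKBH3 shRNA. On 1 probe (A_23_P35989) the control arrays read -0.63 and -0.61 and the ALKBH3 shRNA arrays -2.67 and -2.68 at 48 h and 96 h. The difference was -2.05 ± 0.11 (SE), with an adjusted p of 0.228, or 0.0176 when time point was a replicate block (limma).

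Transcripts of both states were detected together in PC3 cells. A probe of 9 of the 10 genes was well above background on all 4 arrays, namely of CDH1, EPCAM, ESRP1, CDH2, VIM, ZEB1, SNAI1, SNAI2 and TWIST1, whereas both ZEB2 probes were not well above background on any array. Among all named genes 73.4% were well above background on all 4 arrays. The call of the image software is lenient, since it was also given on all 4 arrays to the leukocyte markers PTPRC, CD3E and CD14, and so the call alone says little about use of a gene.

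**Figure D1:**
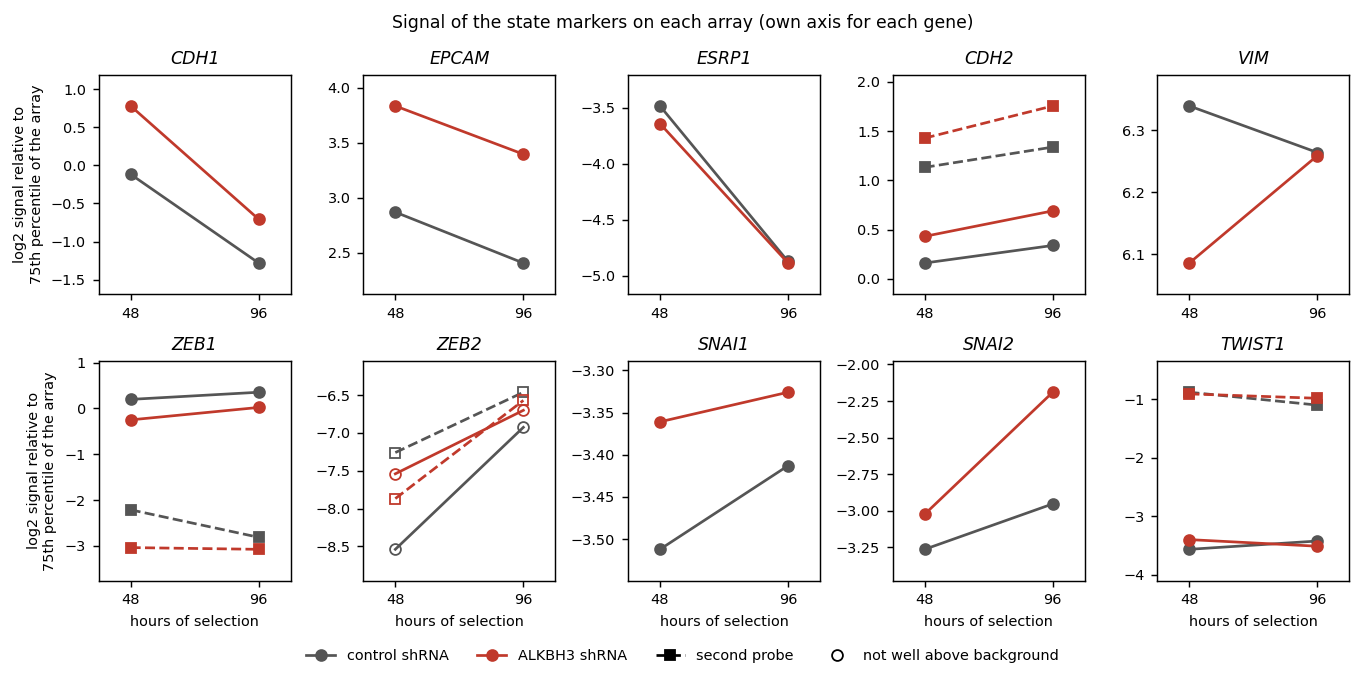
Log2 signal of each gene, relative to the 75th percentile of the array, against hours of selection, with an axis of its own for each gene; grey is control shRNA, red is ALKBH3 shRNA, squares on dashed lines are the second probe and open symbols are not well above background. Each point is 1 array. The EPCAM lines lie apart by 0.96 and 0.99, while CDH1 and ESRP1 are lower at 96 h with either shRNA.

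Between the shRNAs, EPCAM was the member with the largest difference in size and it was higher with ALKBH3 shRNA at both time points. CDH1 was higher at both time points too, both CDH2 probes were slightly higher, and both ZEB1 probes were lower. VIM, ESRP1, SNAI1 and TWIST1 differed by at most 0.25 in size at each time point. In the fit of 2 arrays against 2, with the cutoffs of the study (2-fold and an unadjusted p below 0.05), 0 of the 12 tested probes of the members were called. Over all 23244 probes tested, 0.886% were called higher and 0.232% lower. An unadjusted p below 0.05 was reached by 1 member probe, that of EPCAM, and by 7.66% of all probes. No probe of any gene had an adjusted p below 0.05 in this fit, the smallest being 0.0918 (limma). With arrays compared within their slide instead, 7 of the 12 member probes had an unadjusted p below 0.05 and 1 an adjusted one (limma). The 7 were those of CDH1, EPCAM and SNAI2 and both of CDH2 and ZEB1. The share of all probes with such an unadjusted p is not given here, so the 7 lack a baseline.

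EPCAM encodes an adhesion molecule of the epithelial cell surface. Its signal at 48 h was 2.87 on the control array and 3.83 on the ALKBH3 shRNA array, and at 96 h these were 2.41 and 3.40. Both ALKBH3 shRNA arrays lay above both control arrays. The fold was 1.95 at 48 h and 1.98 at 96 h, and 1.97 in the fit (log2 0.98 ± 0.24, 95% interval 0.35 to 1.61, limma adjusted p = 0.452), just under the 2-fold cutoff. With a replicate block for time point, which sets each ALKBH3 shRNA array against the control on its own slide, the SE was 0.084 and EPCAM had an adjusted p of 0.0300 (limma), the only member with one below 0.05. This SE rests mostly on the spread that limma pools over all probes, since the EPCAM differences of the slides lay close together. In that fit 1.97% of all probes were higher and 0.977% lower at an adjusted p below 0.05. With quantile normalization in place of the percentile the difference was 1.01, past the 2-fold cutoff, with an adjusted p of 0.486 (limma without the block).

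CDH1 encodes E-cadherin, the calcium-dependent adhesion molecule of adherens junctions. Its probe is printed 10 times on each array, and 9 or 10 of these spots were usable. At 48 h the control array read -0.12 and the ALKBH3 shRNA array 0.78, and at 96 h they read -1.28 and -0.71. On each slide the ALKBH3 shRNA array was the higher, by 0.90 at 48 h and 0.58 at 96 h. The SD among spots of an array was between 0.083 and 0.11, which measures the printing and reading of the same sample and not the spread between samples. Across slides the shRNAs overlapped, because the ALKBH3 shRNA array at 96 h lay below the control array at 48 h. The fit gave 0.74 ± 0.63 (SE, 95% interval -0.93 to 2.41, limma adjusted p = 0.891), and the replicate block gave an SE of 0.11 with a limma adjusted p = 0.0518. Without the ALKBH3 shRNA array at 48 h the difference was -0.0077, and without the ALKBH3 shRNA array at 96 h it was 1.48 and past the cutoffs, each of which leaves the slides unbalanced between the shRNAs.

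ESRP1, the epithelial splicing regulator, had signals of -3.48 (control) and -3.64 (ALKBH3 shRNA) at 48 h and of -4.87 and -4.89 at 96 h. The arrays of a slide thus lay close together, at differences of -0.16 and -0.014. The fit gave -0.086 with a 95% interval from -1.73 to 1.56 (limma adjusted p = 0.992). This interval takes in the difference between the slides. With the replicate block the SE was 0.090 (limma adjusted p = 0.623).

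CDH2, which encodes N-cadherin, the cadherin of neural and mesenchymal cells, is measured by 2 probes. The first (A_23_P38732) read 0.16 and 0.34 on the control arrays and 0.43 and 0.69 on the ALKBH3 shRNA arrays at 48 h and 96 h. The second (A_33_P3214159) read 1.13 and 1.34 on the control arrays and 1.43 and 1.76 on the ALKBH3 shRNA arrays. On both probes the ALKBH3 shRNA arrays lay above both control arrays. The differences were 0.31 (95% interval -0.096 to 0.72, limma adjusted p = 0.744) and 0.36 (95% interval -0.094 to 0.81, limma adjusted p = 0.730). With the replicate block the adjusted p was 0.133 and 0.112 (limma). So the signals of both cadherins were higher with ALKBH3 shRNA within each slide, and neither passed the test.

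VIM, the mesenchymal intermediate filament, read 6.34 with control and 6.09 with ALKBH3 shRNA at 48 h. At 96 h the values were 6.264 and 6.259, a difference of -0.0048. The control arrays were the higher ones, by hardly anything at 96 h, and the fit gave -0.13 (95% interval -0.47 to 0.21, limma adjusted p = 0.913). With the replicate block the adjusted p was 0.511 (limma).

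ZEB1, a zinc finger repressor of CDH1, is measured by 2 probes of the same transcript. The first (A_33_P3374723) read 0.20 and 0.35 on the control arrays and -0.25 and 0.021 on the ALKBH3 shRNA arrays at 48 h and 96 h. The second (A_33_P3640690) read -2.21 and -2.81 on the control arrays and -3.04 and -3.07 on the ALKBH3 shRNA arrays. Both probes were lower on both ALKBH3 shRNA arrays with no overlap. The differences in the fit were -0.39 (95% interval -0.80 to 0.017, limma adjusted p = 0.665) and -0.54 (95% interval -1.15 to 0.061, limma adjusted p = 0.692). With the replicate block the adjusted p was 0.0971 and 0.142 (limma).

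SNAI1 and SNAI2 encode zinc finger repressors of CDH1. SNAI1 ran from -3.51 to -3.41 with control shRNA and from -3.36 to -3.33 with ALKBH3 shRNA, a difference of 0.12 (limma adjusted p = 0.913). SNAI2 read -3.27 and -2.95 on the control arrays and -3.03 and -2.19 on the ALKBH3 shRNA arrays at 48 h and 96 h. The ALKBH3 shRNA array at 96 h was the highest of the 4 for SNAI2, the shRNAs overlapped, and the fit gave 0.50 (95% interval -0.33 to 1.33, limma adjusted p = 0.808). The SNAI2 value was 0.084 without that array and 0.92 without the ALKBH3 shRNA array at 48 h. With the replicate block the adjusted p was 0.468 for SNAI1 and 0.149 for SNAI2 (limma). TWIST1, a basic helix-loop-helix factor, differed by 0.17 and -0.089 at 48 h and 96 h on 1 probe (A_23_P71073) and by -0.029 and 0.12 on the other (A_33_P3414591), so the arrays gave it no common direction. ZEB2, the close relative of ZEB1, read between -8.54 and -6.46 on its 2 probes and was not tested.

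**Figure D2:**
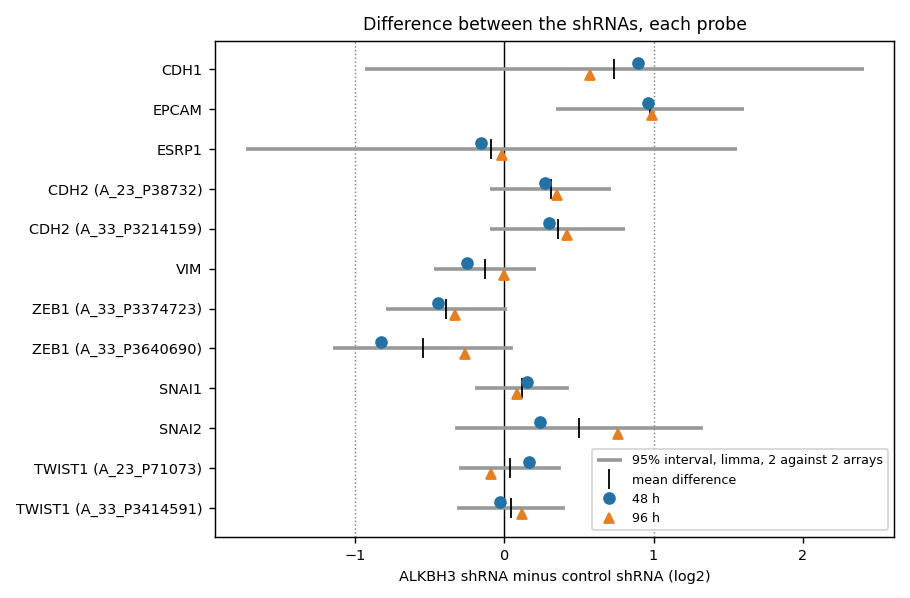
Difference in log2 signal, ALKBH3 shRNA minus control shRNA, for the 12 tested probes: circles are 48 h, triangles 96 h, black ticks the mean and grey bars the 95% interval from limma with 2 arrays per shRNA; dotted lines mark 2-fold. The EPCAM interval lies above 0 and the other 11 intervals cross 0.

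Of the 12 tested probes, 4 were higher and 3 lower with ALKBH3 shRNA without overlap between the shRNAs, against 17.4% and 18.6% of all probes. The higher ones were both CDH2 probes, EPCAM and SNAI1, and the lower ones both ZEB1 probes and VIM, so CDH2 and ZEB1 count with 2 probes each. For VIM the lack of overlap rests on 6.264 against 6.259. The median difference of the 12 probes was 0.082, against 0.0028 over all probes tested. Whether the shRNA difference of a member itself differed between 48 h and 96 h could not be tested, with 1 array for each combination.

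Between the time points, CDH1 and ESRP1 were lower at 96 h with either shRNA and passed the cutoffs. CDH1 was lower by -1.17 in control and -1.49 in ALKBH3 shRNA cells, and the fit gave -1.33 ± 0.37 (SE), which is 2.51-fold (limma adjusted p = 0.216). It lost this call without the ALKBH3 shRNA array at 48 h (-0.88) or the control array at 96 h (-1.04). ESRP1 was lower by -1.39 and -1.24, and the fit gave -1.32 ± 0.11 (SE), 2.49-fold (limma adjusted p = 0.147). After normexp background correction the ESRP1 value was -0.82 and no longer 2-fold. Over all probes 0.525% were called lower and 0.146% higher at 96 h, and 0 had an adjusted p below 0.05 in limma, with 4128 at an unadjusted p below 0.05 and 2320 at an adjusted p below 0.05 once shRNA was a block. With that block CDH1 and ESRP1 had an adjusted p of 0.0286 each and EPCAM, at -0.45, one of 0.0449 (limma).

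None of the mesenchymal members or repressors passed the cutoffs between the time points. The CDH2 probes differed by 0.22 and 0.27 between the time points, VIM by 0.049 and SNAI2 by 0.57. SNAI2 was higher on both 96 h arrays than on both 48 h arrays. A slide effect cannot be told apart from a time effect in any of these values.

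**Figure D3:**
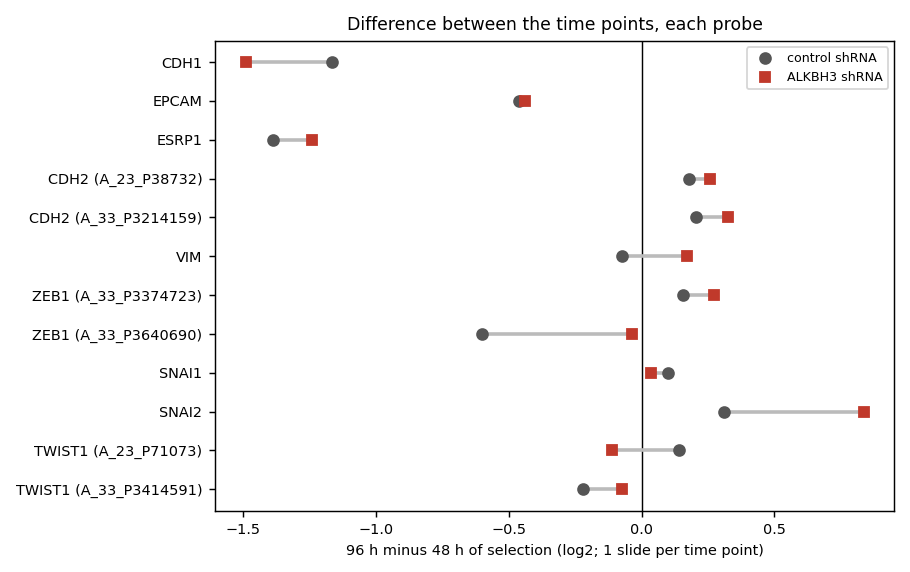
Difference in log2 signal, 96 h minus 48 h of selection, for the 12 tested probes: circles are control shRNA, squares ALKBH3 shRNA, joined by a line. CDH1 and ESRP1 lie between -1.49 and -1.17 with both shRNAs, and EPCAM at -0.46 and -0.44.

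The wider set of epithelial junction and surface genes (34 genes, 33 of them on the array by name) was mostly higher with ALKBH3 shRNA, as EPCAM and CDH1 were. Of the 31 tested, 25 were higher and 2 lower with ALKBH3 shRNA at both time points, where 34.6% and 35.6% of all 14556 genes tested were. The median difference of the list was 0.29 (0.33 at 48 h and 0.29 at 96 h), beside -0.0030 over all genes. One gene passed the cutoffs, against 1.06% higher and 0.24% lower over all genes. That gene was CGN, which encodes the tight junction protein cingulin and rose from 0.068 to 1.80 at 48 h and from -0.32 to 0.71 at 96 h (1.38 ± 0.40 SE, limma adjusted p = 0.535). It lost the call without the ALKBH3 shRNA array at 48 h (0.83) or the control array at 96 h (1.19). With the replicate block 4 genes of the list were higher at an adjusted p below 0.05 and 0 lower, where 2.29% and 1.01% of all genes were. These were EPCAM, CGN, the membrane serine protease gene PRSS8 (0.93, limma adjusted p = 0.0322) and the apical polarity gene CRB3 (0.69, limma adjusted p = 0.0454). Without the block the adjusted p was 0.796 for PRSS8 and 0.873 for CRB3 (limma), and PRSS8 ran from 0.30 without the ALKBH3 shRNA array at 48 h to 1.55 without that at 96 h. An unadjusted p below 0.05 in the fit without the block was reached by 5 higher genes, namely CGN, EPCAM, CLDN1, DSP and MAPK13, and by 1 lower gene, the desmosomal cadherin DSC2 (-0.47), where 4.66% of all genes were higher and 3.5% lower at such a p. EPCAM was named as a member, CGN and PRSS8 for the size of their differences in these same data, and the other genes after their values were seen. P-cadherin (CDH3) differed by 0.25 at 48 h and -0.067 at 96 h.

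**Figure D4:**
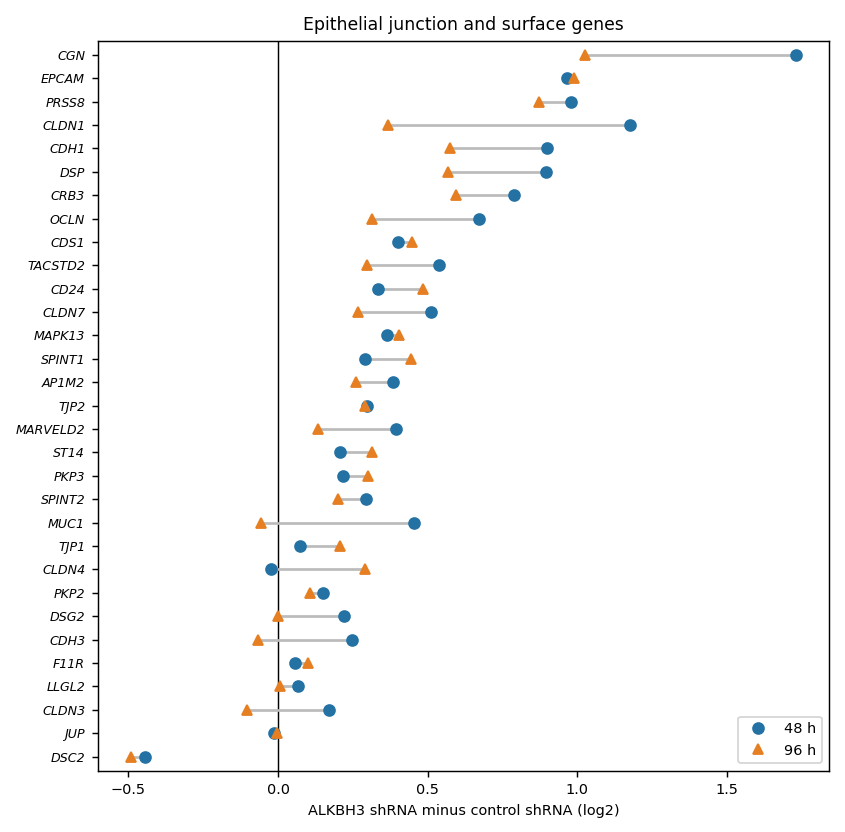
Difference in log2 signal, ALKBH3 shRNA minus control shRNA, for the 31 tested epithelial junction and surface genes in order of their mean; circles are 48 h and triangles 96 h, 1 array against 1 array each. For 25 genes both symbols lie above 0, from CGN at 1.73 and 1.03 downwards, and DSC2 and JUP lie below 0 at both.

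Between the time points the same list lay the other way. The median was -0.38 at 96 h against 48 h, and 24 of the 31 genes were lower at 96 h with both shRNAs, where 39.2% of all genes were. Genes past the cutoffs were 2, both lower, namely CDH1 and CRB3 (-1.15), the second named after its value was seen, against 0.666% lower and 0.124% higher over all genes. The median over all genes was -0.0061.

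The epithelial splicing and transcription factors did not follow the junction genes between the shRNAs. Of 13 tested, 2 were higher and 8 lower at both time points, where 34.6% and 35.6% of all genes tested were. The median was -0.086, and 0 were called, against 1.06% higher and 0.24% lower over all genes. ESRP2, the paralog of ESRP1, differed by 0.12 and 0.035 at 48 h and 96 h, and the grainyhead factor GRHL2 by 0.25 and -0.069. Its relative GRHL1 was lower by -0.21 and -0.28 on the probe that stands for it (limma adjusted p = 0.845). Another tested GRHL1 probe differed by 0.14 and -0.99. The largest difference in size was that of OVOL1, a zinc finger repressor of ZEB1 in epithelia, at -0.074 and -1.09 (limma adjusted p = 0.952). OVOL2 differed by -0.047 and -0.13 and the forkhead factor FOXA2 by -0.30 and -0.12. Between the time points 4 genes of this list passed the cutoffs, all lower at 96 h: ESRP1, OVOL1 (-1.66), OVOL2 (-1.07) and GRHL2 (-1.03), against the same 0.666% of all genes. Another tested GRHL2 probe differed by -0.17 between the time points and did not pass them.

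The cadherin and catenin genes showed no common direction. Of 9 tested, 3 were higher and 3 lower at both time points, where 34.6% and 35.6% of all genes tested were. The median was 0.085, and 0 were called, against 1.06% higher and 0.24% lower over all genes. CTNND1, which encodes the p120 catenin that holds cadherins at the membrane, differed by -0.11 at both time points. The mesenchymal cadherin CDH11 differed by -0.070 and 0.24. Both probes of CTNNA1, the alpha-catenin gene that PC3 cells are known to have lost, were not well above background on any array.

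Of the 28 mesenchymal markers that were well above background on all 4 arrays, 12 were higher and 6 lower with ALKBH3 shRNA at both time points, against 34.6% and 35.6% of all genes tested. Their median was 0.078, and 0 were called, against 1.06% higher and 0.24% lower over all genes. LUM, which encodes the matrix proteoglycan lumican, passed the cutoffs, but it was well above background on 1 of the control arrays and both ALKBH3 shRNA arrays, entered the test only through the latter, and its call is no evidence of its own. It read -5.00 and -6.19 on the control arrays and -3.01 and -4.21 on the ALKBH3 shRNA arrays at 48 h and 96 h (1.98 ± 0.57 SE, limma adjusted p = 0.534), and the difference was 1.13 after normexp background correction and 1.38, with the call lost, without the ALKBH3 shRNA array at 48 h. With the replicate block 4 of the 28 genes were higher at an adjusted p below 0.05 and 0 lower, where 2.29% and 1.01% of all genes were. These were the matricellular gene CCN2 (0.69, limma adjusted p = 0.0399), the receptor tyrosine kinase gene AXL (0.61), the myosin light chain gene MYL9 (0.64) and the proteoglycan gene DCN (0.65). CCN2 was named for the size of its difference in these same data, and the last 3 after their values were seen. DCN was dim, between -5.93 and -5.19, and its other probe was not well above background on any array. The matrix glycoprotein gene SPARC was lower at both time points, by -0.45 and -1.26 (limma adjusted p = 0.841), and the fibronectin gene FN1 differed by -0.36 at 48 h and 0.17 at 96 h. Opposite directions at the time points were seen for 29.8% of all genes.

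Of the fibroblast markers COL1A1, COL3A1, DCN, LUM and PDGFRB, 3 were well above background on all 4 arrays, PDGFRB was on none, and 0 of the 3 were called. Summed over these and LUM, their linear signal was 0.421 to 0.655 times the 75th percentile with control shRNA and 0.779 to 1.01 times with ALKBH3 shRNA. The brightest probe, that of COL1A1, made up most of each sum, and LUM entered the test only through the ALKBH3 shRNA arrays. COL1A1 was higher by 0.52 and 0.90 at 48 h and 96 h, and DCN, on its detected probe, by 0.56 and 0.74. COL3A1 was lower by -0.078 and -0.78 at these time points. The part of these genes in the mesenchymal count was not tested.

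Among the repressors and inducers of the transition, 12 of 18 were well above background on all 4 arrays. Of these, 4 were higher and 3 lower at both time points, where 34.6% and 35.6% of all genes tested were. The median was -0.0066, and 0 were called, against 1.06% higher and 0.24% lower over all genes. LEF1, a nuclear partner of beta-catenin, was lower by -0.67 and -0.76 (limma adjusted p = 0.474, and 0.0398 with the replicate block). It was the only gene of this list past an adjusted p of 0.05 under the block, where 2.29% of all genes were higher and 1.01% lower. Its difference ran from -0.78 to -0.39 over the processing settings. Of 18 genes for repressor partners and SNAI1 turnover, 6 were higher and 8 lower at both time points, against the same 34.6% and 35.6%. Their median was -0.035, and 0 were called, against the same 1.06% and 0.24%. AJUBA, a LIM protein that SNAI1 binds, was higher by 0.49 and 0.64 (limma adjusted p = 0.619), the histone deacetylase gene HDAC1 lower by -0.49 and -0.27 (limma adjusted p = 0.599), and the histone demethylase gene KDM1A higher by 0.23 and 0.43 (limma adjusted p = 0.684).

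**Figure D5:**
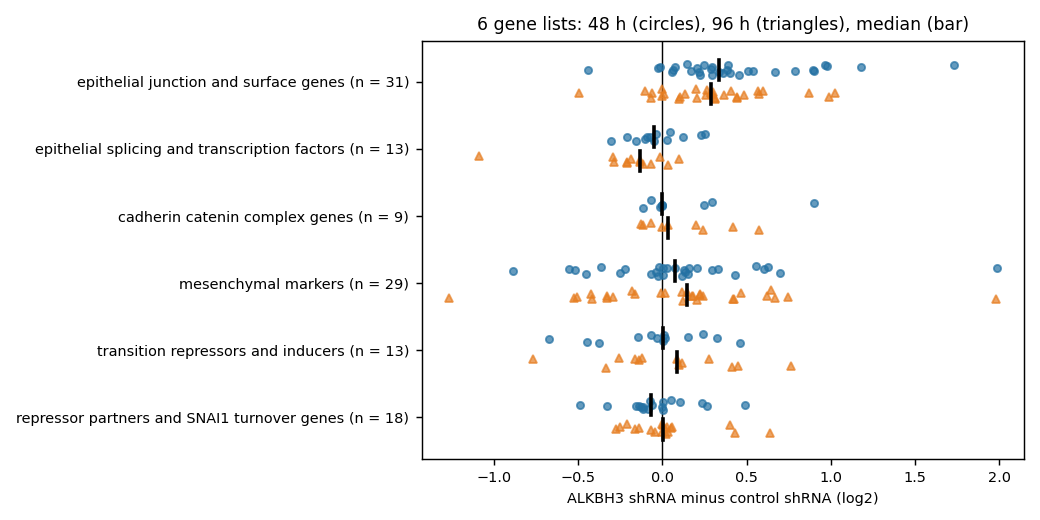
Difference in log2 signal, ALKBH3 shRNA minus control shRNA, of every tested gene of 6 lists; circles are 48 h, triangles 96 h, each symbol is 1 gene with 1 array against 1 array, and black bars are medians. The medians of the epithelial junction and surface genes are 0.33 and 0.29, and those of the other 5 lists lie between -0.13 and 0.14.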

How the data were processed

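RNA of the 4 samples had been labelled with Cy3 and hybridised to Agilent 4x44K v2 arrays. The authors deposited spot intensity values, per the file headers from Feature Extraction 10.7.3.1 after background subtraction on each array and without normalization between arrays. The authors also deposited log2 values that they had normalized between arrays with limma, which served as an alternative. Spots flagged as not uniform or as outliers were removed, log2 intensities were centred on the 75th percentile of the array, and each probe was given the mean of its spots. Detection used the software's own call, needed on at least 0.5 of a probe's spots, and a probe entered the tests if it was detected on both arrays of either shRNA. The files hold no gene name column, so members were found through the accession of each probe in RefSeq (GRCh38.p14), which named 24910 of 34127 probes. No coordinates on the array annotation were used.

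The shRNAs were compared with lmFit and eBayes of limma 3.58.1 (in R 4.3.3) on all 4 arrays, with Benjamini-Hochberg adjustment over all 23244 probes tested. List counts for the mesenchymal and repressor genes are over those detected on all 4 arrays, chosen after seeing the data. Genes in lists are represented by their tested probe with the highest mean signal. Calls used a 2-fold change with an unadjusted p below 0.05. The time points pair the arrays, as labelled and by slide, and deviations of arrays of the same time point from their shRNA means correlated at 0.660; time point was therefore used as a replicate block in an alternative. P-values measure the spread between these arrays, which limma pools in part over all probes. Under the replicate block few residuals are left for each probe, and EPCAM, CTNND1 and JUP all had an SE of 0.084. Nothing says that the samples came from separate cultures. The number of arrays limits the precision. The steps were tested on simulated data.

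The members and lists were chosen with earlier results of these data known. The text names all members, ALKBH3, and in each list the called genes, the 3 largest differences in size and CTNNA1, ESRP2, GRHL2, OVOL1, OVOL2, FN1, CDH3 and CDH11, apart from items that are not reported here. Alternatives were normexp background correction (offset 50), quantile and median normalization, the percentile over probes detected on all arrays, the authors' values, other filters on dim probes, 1 probe per gene, a 1.5-fold cutoff, single time points, the mean over probes, stricter detection, and leaving out each array.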

Additional observations from a re-analysis of the deposited data

Results flagged for a closer look

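FN1, which encodes the matrix protein fibronectin, was lower with ALKBH3 shRNA at 48 h (-0.36) and higher at 96 h (0.17). Both values were larger in size than the median over all probes tested (0.149 at 48 h and 0.146 at 96 h). Opposite directions were seen for 29.8% of all genes, and other genes of the lists had them too. The difference between the time points was not tested, with 1 array for each combination.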

How the results depend on the processing

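The number of member probes past the cutoffs between the shRNAs was 0, and 1 with quantile normalization, 1 at 1.5-fold, and 0 to 2 on leaving out each array (1 without the control array at 48 h, EPCAM at 1.21, and 2 without the ALKBH3 shRNA array at 96 h, EPCAM at 1.20 and CDH1 at 1.48). With time point as a replicate block 1 member probe and 685 of all probes had an adjusted p below 0.05, against 0 and 0 without it. Apart from EPCAM, the block took no member past an adjusted p of 0.05 between the shRNAs. Over all probes, 206 higher and 54 lower calls became 76 and 27 with normexp, 82 and 26 with normexp and quantile normalization, 495 and 113 with no filter, 595 and 292 at 1.5-fold, 118 higher with the authors' values, 123 higher with a filter on all 4 arrays, 34 lower with 1 probe per gene, and 244 to 506 higher and 52 to 134 lower on leaving out an array. List genes past the cutoffs were 2, and 1 with the filter on all 4 arrays, which drops LUM, and 2 to 8 on leaving out an array (4 without the control array at 48 h, 8 without the ALKBH3 shRNA array at 96 h). Member probes past the cutoffs between time points were 2, and 1 with normexp, 1 with normexp and quantile normalization, 4 with no filter, and 1 to 2 on leaving out an array. The cause of these moves was not tested, apart from the fewer or more probes that a filter leaves.

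TWIST1 had no stable sign: probe A_23_P71073 was at 0.038 between the shRNAs, but -0.054 with normexp, -0.050 with normexp and quantile normalization, -0.063 with the authors' values and -0.089 at 96 h alone, and its time difference was -0.035 and -0.0031 under the normexp settings, while probe A_33_P3414591 was -0.029 at 48 h alone. Leaving out an array removes the balance between slides, and the difference between the shRNAs then crossed 0 for CDH1 (-0.0077 to 1.48), ESRP1 (-0.78 to 0.61), the TWIST1 probes (-0.033 to 0.11 and -0.066 to 0.15), ESRP2 (-0.032 to 0.19), GRHL2 (-0.50 to 0.69), OVOL1 (-1.66 to 0.50), OVOL2 (-0.65 to 0.47), FOXA2 (-0.42 to 0.0040), FN1 (-0.53 to 0.34), CDH3 (-0.36 to 0.54) and CDH11 (-0.027 to 0.20). The time difference crossed 0 for VIM (-0.078 to 0.18), EPCAM (-0.94 to 0.044), the ZEB1 probes (-0.0096 to 0.44 and -0.73 to 0.093), SNAI1 (-0.0088 to 0.14) and TWIST1 probe A_23_P71073 (-0.068 to 0.097). PRSS8 (0.30 to 1.55) and SNAI2 (0.084 to 0.92) kept their sign but moved by over 1.5 times, as did other values that were not called, ZEB1 probe A_33_P3640690 (-0.84 to -0.24) among them. EPCAM stayed between 0.74 and 1.21 between the shRNAs on leaving out each array. Dim probes limit ZEB2, for which no difference can be given.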

Other observations

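The simple epithelial keratin genes KRT8, KRT18 and KRT19 were well above background on all 4 arrays, and their median difference between the shRNAs was -0.073. Summed over these 3 genes, the linear signal was 160.3 to 173.0 times the 75th percentile with control shRNA and 150.2 to 150.4 times with ALKBH3 shRNA. The prostate luminal gene KLK3 was not well above background on any array. The endothelial markers PECAM1 and CDH5, well above background on all 4 arrays, had a median of -0.39, with 0 past the cutoffs. The endothelial marker VWF was higher with ALKBH3 shRNA, by 0.26 at 48 h and 0.33 at 96 h, and with it the median was -0.20. VWF was well above background on 1 control array and both ALKBH3 shRNA arrays, and entered the test only through the latter.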
